A study of Mus musculus with 48 samples.

Results

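D2A1 and 4T1 are 2 cell lines, each started from a mammary tumor that arose spontaneously in Balb/c mice, and the comparison set 4 D2A1 tumors against 4 4T1 tumors, 8 of the 48 tumors in the series. The tumors were chosen by their titles. The pair was picked because Tgfb2 mRNA, which encodes the ligand TGF-β2, was fully separated between them in these same arrays, so Tgfb2 and the cytokine gene Tslp are described here without a test. Both groups came from cells implanted in the #4 mammary fat pad of immunocompetent hosts of the same strain, and the tumors were taken at a diameter of 0.5 to 1.0 cm. They were trimmed of necrotic and surrounding tissue before freezing. The study's methods describe the hosts as young females, and neither line carried an engineered allele or received an agent in the labels. Each model is 1 cell line, so the 4 tumors of a group repeat the implantation and not the tumor of origin. The other 40 tumors belong to 10 further mammary models and were used for the estimate of spread and as a reference range. Total RNA was read on Affymetrix Mouse Gene 1.0 ST arrays, and all levels below are log2 array signal as deposited.

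Epithelial cells are joined by adherens junctions, desmosomes and tight junctions, and they rest on laminin through integrins. Mammary tumors differ in how much of this equipment they keep, and transforming growth factor β (TGF-β), a secreted cytokine held in a latent complex until it is released, is known for driving its loss in epithelium. Tgfb1, Tgfb2 and Tgfb3 encode its 3 isoforms.

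Among 19938 genes, 5191 (26%) differed between the models at an adjusted p under 0.05 in limma (Benjamini-Hochberg over all genes), 2673 (13.4%) higher in D2A1 and 2518 (12.6%) lower. Centring each array on its median changed this split to 3159 higher and 1833 lower. A difference of at least 1 log2 unit was reached by 904 of the called genes (4.53%), 586 lower in D2A1 (2.94%) and 318 higher (1.59%). Differences are given as D2A1 minus 4T1 in log2 units ± SE from this fit. The 4 tumors of one model did not overlap the 4 of the other for 6052 genes (30.4%). The median difference over all genes was 0.027. In bulk tumor RNA, fewer cells of a type and less RNA per cell cannot be told apart.

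Arrays of the same model correlated at 0.985 to 0.996 and arrays of different models at 0.957 to 0.968. Every array had its nearest neighbour in its own model. Y-linked Uty, Eif2s3y and Kdm5d, which female cells lack, read 4.23 to 4.89 in all 8 tumors, and this was taken as the signal of an unexpressed gene. Of 8 X inactivation and Y-linked genes measured, 6 were called higher in D2A1. Fewer X-linked genes than that were measured in this list, so a Y-linked gene was among the calls. A call at so low a signal need not mean expression. D2A1 replicate 1 stood apart in skeletal muscle and epidermis genes. The mean of 10 muscle genes, each relative to its mean over 48 tumors, was 1.20 in that tumor and -0.34 to -0.08 in the other D2A1 tumors. The mean of 6 epidermis genes was 1.46 against -0.41 to -0.24. 4T1 replicate 3 stood apart in 8 B cell genes, at 3.08 against -0.57 to -0.54 in the other 4T1 tumors. Without these 2 tumors 4450 genes were called, 2483 higher and 1967 lower, and 4122 of them were called with all tumors.

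The mRNAs of the TGF-β ligands divided between the models. The arrays read mRNA and not protein, so these values are not ligand amounts. The paper, which measured isoform protein in further tumors of the same models, proposes that transcripts stand in poorly for protein. For Tgfb2 it reports a high correlation of mRNA with protein, although a large rise in mRNA went with only a very small rise in protein. The correlation it reports for TGF-β1 and TGF-β3 was weaker, with slopes closer to 1. Tgfb2 read 9.97, 9.74, 10.44 and 9.84 in D2A1 tumors and 8.01, 8.96, 8.25 and 7.79 in 4T1 tumors. Its mean was 3.35-fold higher in D2A1, the highest of 12 models, and the groups did not overlap. Tgfb3 went the other way, at 10.78, 10.66, 10.59 and 10.56 in D2A1 tumors and 11.58, 11.19, 11.07 and 11.35 in 4T1 tumors. It was lower in D2A1 without overlap (-0.65 ± 0.19, adjusted p = 0.00721), and 4T1 had the highest mean of the 12 models. Tgfb1 read 11.04, 10.83, 10.88 and 10.75 in D2A1 tumors and 10.94, 11.03, 10.88 and 11.09 in 4T1 tumors, and its groups overlapped (-0.11 ± 0.17, adjusted p = 0.704).

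Of 21 genes for holding and releasing latent TGF-β, 7 were lower in D2A1, 2 were higher and 12 were not called. This is 42.9% called against 26% of all genes, with a median of -0.32. Ltbp3, a latent TGF-β binding protein, read 10.54, 10.26, 10.14 and 10.35 in D2A1 tumors and 11.99, 12.00, 11.95 and 12.35 in 4T1 tumors. Ltbp2, a matrix protein of the same family that does not bind the latent ligand, read 9.57, 8.47, 7.91 and 8.33 in D2A1 tumors and 10.85, 10.94, 10.54 and 11.04 in 4T1 tumors. Both were lower in every D2A1 tumor than in any 4T1 tumor, Ltbp3 3.35-fold (adjusted p = 1.53e-11) and Ltbp2 4.83-fold (adjusted p = 2.26e-08). For Ltbp2 the D2A1 tumors differed among themselves, with replicate 1 well above the others. Ltbp1 differed by -0.75 ± 0.24 (adjusted p = 0.0179) and lost its call without D2A1 replicate 1 (adjusted p = 0.0513) or 4T1 replicate 4 (adjusted p = 0.0537). Among the integrin subunits that release the latent ligand, Itgb8 was higher in D2A1, at 8.23, 8.26, 8.66 and 8.66 in D2A1 tumors and 6.81, 6.86, 6.77 and 6.80 in 4T1 tumors (3.13-fold, adjusted p = 0.00035). Itgb3 and Itgb6 were lower (-1.46 ± 0.22 and -1.11 ± 0.29). The protease gene Mmp9 was 5.27-fold lower in D2A1, and 4T1 had the highest Mmp9 mean of the 12 models.

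Smads are the proteins that carry the signal to the nucleus. The list of receptors, coreceptors, Smads and their regulators held 10 genes lower, 2 higher and 8 not called of 20 (median -0.33). Among all genes, 12.6% were lower and 13.4% higher. Smad3, a mediator of TGF-β signals, read 9.65, 9.77, 9.63 and 9.88 in D2A1 tumors and 11.30, 11.49, 11.22 and 11.54 in 4T1 tumors. It was 3.15-fold lower in D2A1 (adjusted p = 1.12e-11), with the D2A1 mean the lowest and the 4T1 mean the highest of 12 models. Smad2, the other Smad of this branch, was slightly higher in D2A1 (0.32 ± 0.08, adjusted p = 0.00197), with the lowest D2A1 tumor, at 9.41, next to the highest 4T1 tumor, at 9.40. Tgfbr1, the signalling type I receptor, was lower at 9.87, 9.97, 9.88 and 9.95 in D2A1 tumors and 10.63, 10.49, 10.52 and 10.73 in 4T1 tumors (-0.67 ± 0.14, adjusted p = 0.000335). Eng, a coreceptor of endothelium, and the repressors Ski and Skil were lower too (-1.16 ± 0.27, -0.47 ± 0.05 and -0.81 ± 0.20). Tgfbr2 was not called (-0.30 ± 0.21, adjusted p = 0.331).

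**Figure D1:**
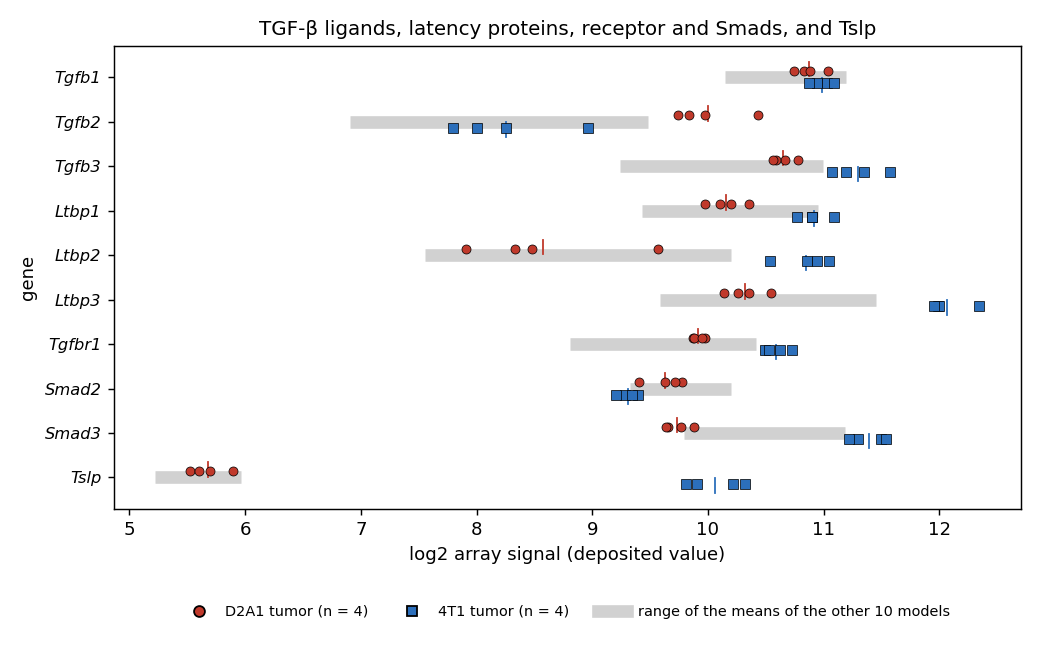
Log2 array signal (x axis) of TGF-β pathway genes and Tslp (y axis) in each D2A1 (circles) and 4T1 (squares) tumor, with short lines at the group means and grey bars for the range of the means of the other 10 models. Tgfb2 is higher in all 4 D2A1 tumors, Tgfb3, the Ltbp genes, Tgfbr1, Smad3 and Tslp are higher in all 4 4T1 tumors, and Tgfb1 overlaps.

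Of 16 TGF-β target genes measured, 4 were lower in D2A1, 1 was higher and 11 were not called, so 31.2% were called against 26% of all genes. Id1, an inhibitor of differentiation better known as a BMP target, was lower (-0.80 ± 0.11, adjusted p = 7.56e-07), as were Ltbp2, Skil and Tgfbi, the last of these losing its call without D2A1 replicate 1 (adjusted p = 0.0777) or 4T1 replicate 4 (adjusted p = 0.0504). The cell cycle inhibitor Cdkn2b was higher, at 8.40, 8.54, 9.04 and 8.77 in D2A1 tumors and 7.20, 7.31, 7.11 and 7.08 in 4T1 tumors (2.85-fold, adjusted p = 8.86e-05). Established targets such as Smad7 (-0.25 ± 0.16), Ccn2 (-0.42 ± 0.25), Pmepa1 (-0.10 ± 0.25) and Fn1 (-0.17 ± 0.16) were not called.

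Tslp, an epithelial alarm cytokine that acts on dendritic cells, T cells and mast cells, set 4T1 apart from every other model. It read 5.52, 5.89, 5.60 and 5.69 in D2A1 tumors and 10.22, 9.90, 10.32 and 9.81 in 4T1 tumors. The D2A1 tumors lay in the range of the other 10 model means, 5.22 to 5.96, and the 4T1 tumors lay 20.9-fold above D2A1. Crlf2, which encodes its receptor subunit, was not called (-0.23 ± 0.10, adjusted p = 0.0847), although it passed without 4T1 replicate 1 (adjusted p = 0.036). Among the other 12 alarm cytokine genes measured, Il1a and Il18 were lower in D2A1 and none was higher (12.6% and 13.4% of all genes). Il1a, an alarmin released by damaged cells, read 7.48, 7.44, 7.86 and 8.01 in D2A1 tumors and 9.15, 10.07, 9.19 and 9.36 in 4T1 tumors (3.36-fold lower in D2A1, adjusted p = 0.00102). Il18 differed by -1.26 ± 0.28, and Il33 was not called (0.44 ± 0.45).

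In the list of myeloid growth factors and their receptors, 6 of 11 genes were lower in D2A1 and none was higher (54.5% called, 26% of all genes). The count mixes ligand genes with receptor genes such as Csf1r and Csf3r. Csf3, which encodes the granulocyte growth factor G-CSF, read 6.63, 6.42, 6.72 and 6.66 in D2A1 tumors and 7.55, 8.26, 8.03 and 7.66 in 4T1 tumors. It was 2.41-fold lower (adjusted p = 3.57e-08), the D2A1 mean being the lowest and the 4T1 mean the highest of 12 models. Kitl, the ligand of the mast cell receptor Kit, read 7.95, 8.63, 7.98 and 8.40 in D2A1 tumors and 10.04, 9.29, 9.78 and 9.68 in 4T1 tumors, 2.75-fold lower in D2A1 (adjusted p = 9.2e-07). Neither gene overlapped between models. Csf2, the gene for GM-CSF, differed by -0.44 ± 0.11, and Csf1 was not called (0.10 ± 0.16).

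In the interleukin 6 family, Stat3, the transcription factor these cytokines act through, read 11.05, 10.96, 10.75 and 10.76 in D2A1 tumors and 11.49, 11.67, 11.72 and 11.49 in 4T1 tumors, and Osmr, the receptor for oncostatin M, read 9.91, 9.47, 8.27 and 8.84 in D2A1 tumors and 10.97, 11.09, 11.09 and 10.97 in 4T1 tumors. Both were lower in all 4 D2A1 tumors, with the lowest D2A1 and the highest 4T1 mean of 12 models (-0.72 ± 0.06, adjusted p = 6.57e-12, and -1.91 ± 0.22, adjusted p = 1.38e-08). Of 12 family genes measured, 3 were lower and none was higher, 25.0% called against 26% of all genes. Chemokines mostly overlapped, with 2 of 33 higher in D2A1 and 1 lower (9.1% called, 26% of all genes). The higher ones were Ccl28, a mucosal chemokine, and the interferon-induced Cxcl10, 2.16-fold (adjusted p = 0.00961), which lost its call without D2A1 replicate 1 and 4T1 replicate 3 together (adjusted p = 0.0807). The lower one, Ccl22, lost its call without D2A1 replicate 2, 3 or 4 or without 4T1 replicate 2 or 3 (adjusted p = 0.0526 to 0.0977).

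Of the 59 gene lists examined, the lowest median was that of epithelial adhesion and identity. Of 26 such genes measured, 20 were lower in D2A1, none was higher and 6 were not called, with a median of -2.54. The share called was 76.9%, against 26% of all genes. The same 20 to 0 count was obtained without D2A1 replicate 1 and 4T1 replicate 3. Epcam, an epithelial surface adhesion molecule, read 6.17, 7.14, 6.02 and 5.92 in D2A1 tumors and 11.29, 11.29, 11.37 and 10.92 in 4T1 tumors. Cdh1, which encodes E-cadherin of the adherens junction, read 7.69, 7.99, 7.47 and 7.52 in D2A1 tumors and 11.25, 11.19, 11.35 and 10.93 in 4T1 tumors. D2A1 replicate 2 was the highest D2A1 tumor for both genes and still far below the lowest 4T1 tumor, replicate 4. Epcam was 30.0-fold and Cdh1 11.4-fold lower in D2A1 (adjusted p = 1.98e-07 and 3.53e-08).

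The regulators of this program were low in the same tumors. Esrp1, an RNA-binding protein that sets epithelial splice forms, read 6.07, 6.46, 5.83 and 5.72 in D2A1 tumors and 10.31, 10.42, 10.75 and 10.23 in 4T1 tumors, 21.2-fold lower in D2A1 (adjusted p = 9.34e-08). Grhl2, a transcription factor of epithelial genes, read 6.12, 6.14, 6.23 and 6.07 in D2A1 tumors and 9.17, 9.16, 9.31 and 8.94 in 4T1 tumors, 8.03-fold lower (adjusted p = 7.43e-09). Neither overlapped, and D2A1 had the lowest Esrp1 mean of 12 models. Esrp2 (-1.94 ± 0.39) and Elf3 (-1.56 ± 0.29) were lower too, while Ovol1 (-0.32 ± 0.24) and Grhl1 (0.37 ± 0.32) were not called. Desmosome genes followed, with Dsp 13.5-fold, Dsc2 9.04-fold, Dsg2 5.97-fold and Pkp3 2.99-fold lower. Dsp, the linker of desmosomes to keratin, read 5.75 to 7.57 in D2A1 tumors, with replicate 1 the highest. The membrane protease genes St14, which encodes matriptase, and Prss8 were 16.5-fold and 10.3-fold lower, and those of their inhibitors Spint1 and Spint2 were 7.78-fold and 4.18-fold lower.

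**Figure D2:**
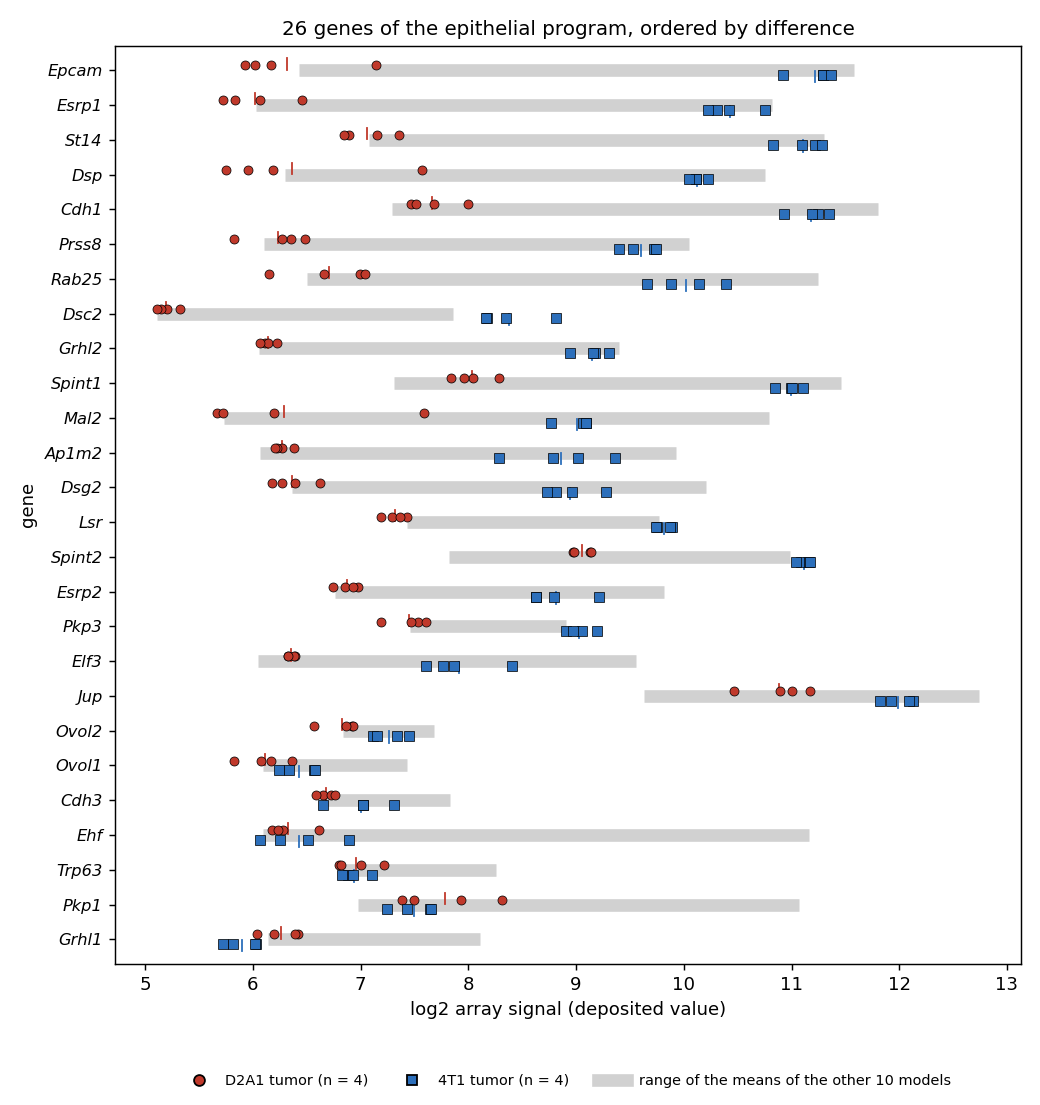
Log2 array signal (x axis) of 26 epithelial genes (y axis, ordered by difference) in the 4 D2A1 (circles) and 4 4T1 (squares) tumors, with lines at group means and grey bars for the range of the other 10 model means. For 20 genes all 4 D2A1 tumors lie below all 4 4T1 tumors, and the D2A1 tumors sit near the lower end of the range of the other models.

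The E-box CACCTG, read as CAGGTG on the opposite strand, is the site bound by the repressors of the Zeb and Snai families, and it was searched on both strands in the 250 bases before the start of these genes. The motif was chosen after the values had been seen. Of the 20 genes lower in D2A1, 10 had a promoter in the RefSeq table used (GRCm38.p6). The motif was held in at least 1 promoter by 6 of these genes (60%), and by 17.2% of all 32851 promoters, of 27025 genes, in the table. The first share counts genes and the second counts promoters. A gene with several promoters has more chances of a match, so the 2 shares cannot be compared directly. A match is a description of the letters. The promoters of Epcam (chr17:87635729-87635978, plus strand), Cldn4 (chr5:134946935-134947184, minus strand) and Ap1m2 (chr9:21312334-21312583, minus strand) are shown because Epcam and Cldn4, the latter from the tight junction list, had the largest differences among the epithelial and junction genes and Ap1m2, an adaptor of sorting to the basolateral membrane, held 4 matches. Matches are in capitals, 5′ to 3′ in the direction of the gene.
Epcam: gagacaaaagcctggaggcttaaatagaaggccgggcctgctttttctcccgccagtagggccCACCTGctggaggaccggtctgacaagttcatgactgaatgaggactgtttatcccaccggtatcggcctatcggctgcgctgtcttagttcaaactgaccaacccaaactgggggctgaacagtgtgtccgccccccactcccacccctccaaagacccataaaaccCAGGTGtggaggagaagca
Cldn4: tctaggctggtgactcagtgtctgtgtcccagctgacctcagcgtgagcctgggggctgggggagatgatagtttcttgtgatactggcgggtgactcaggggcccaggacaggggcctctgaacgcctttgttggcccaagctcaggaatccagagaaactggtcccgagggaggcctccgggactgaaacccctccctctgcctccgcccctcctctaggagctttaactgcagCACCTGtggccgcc
Ap1m2: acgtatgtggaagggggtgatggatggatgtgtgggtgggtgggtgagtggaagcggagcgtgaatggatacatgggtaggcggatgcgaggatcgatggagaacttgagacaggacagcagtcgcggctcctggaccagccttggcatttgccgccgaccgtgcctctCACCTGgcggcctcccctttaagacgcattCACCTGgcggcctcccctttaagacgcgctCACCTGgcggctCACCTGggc
Ap1m2 read 6.27, 6.23, 6.38 and 6.21 in D2A1 tumors and 8.78, 9.02, 9.36 and 8.29 in 4T1 tumors, 6.03-fold lower in D2A1 (adjusted p = 2.79e-06).

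Claudins and their partners form the tight junction, and 11 of 23 such genes were lower in D2A1, with 1 higher (median -0.60). This is 52.2% called against 26% of all genes. Cldn4 read 7.63, 7.59, 7.58 and 7.40 in D2A1 tumors and 12.13, 12.41, 12.34 and 12.23 in 4T1 tumors, 26.5-fold lower in D2A1 (adjusted p = 1.36e-11), with the lowest D2A1 and the highest 4T1 mean of 12 models. Cldn7 (8.29-fold), Cldn3 (6.54-fold), Ocln (3.78-fold) and Marveld2 (3.26-fold) were lower as well, and D2A1 had the lowest mean of 12 models for each. Cldn12, a claudin found outside epithelium too, was the exception, at 10.70, 10.83, 11.19 and 10.99 in D2A1 tumors and 8.79, 9.17, 8.996 and 8.88 in 4T1 tumors, 3.93-fold higher in D2A1 (adjusted p = 8.22e-07). The D2A1 mean of Cldn12 was the highest of 12 models. D2A1 ranked lowest of the 12 models for 9 of the 23 tight junction genes (39.1%) and for 7.53% of all genes.

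Luminal markers held 10 of 16 genes lower in D2A1 and none higher (median -1.81), 8 and 0 without D2A1 replicate 1 and 4T1 replicate 3. With all tumors 62.5% were called, against 26% of all genes. Krt8, a keratin of simple epithelium, read 10.63, 11.21, 11.21 and 10.98 in D2A1 tumors and 13.08, 13.10, 13.03 and 12.94 in 4T1 tumors, and the luminal transcription factor Gata3 read 7.97, 7.94, 7.41 and 7.08 in D2A1 tumors and 11.32, 11.39, 11.11 and 11.26 in 4T1 tumors. Krt8 was 4.08-fold and Gata3 12.7-fold lower in D2A1 (adjusted p = 4.84e-11 and 1.21e-09), without overlap. Krt8 nonetheless remained far above the signal of unexpressed genes in D2A1. Krt18, its partner, read 11.75, 11.81, 11.95 and 11.98 in D2A1 tumors and 12.85, 12.85, 12.79 and 12.90 in 4T1 tumors and was not called (-0.97 ± 0.41, adjusted p = 0.075), although its groups did not overlap. Krt7, a duct keratin, was 26.1-fold lower (adjusted p = 5.53e-09). The basal keratin Krt14 was 8.56-fold lower in D2A1, and Krt5, its usual partner, was not called (0.82 ± 0.92). Both read highest in D2A1 replicate 1 among D2A1 tumors, 8.74 and 9.33, the tumor with the epidermis signal of 1.46. The part of that signal in the keratin values was not tested. Only 1 of 10 basal and myoepithelial genes was called, Krt14 (26% of all genes were called).

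Mesenchymal markers were mixed. Of 17, 2 were higher in D2A1, 3 were lower and 12 were not called, 29.4% called against 26% of all genes. The median was -0.11, and 1 was lower without D2A1 replicate 4 or 4T1 replicate 1 or 2. Vim, the intermediate filament of mesenchymal cells, read 13.53, 13.46, 13.45 and 13.46 in D2A1 tumors and 13.45, 13.43, 13.39 and 13.38 in 4T1 tumors, and its groups overlapped (0.06 ± 0.04, adjusted p = 0.326). The higher genes were 2 transcription factors, Twist1 at 10.04, 9.65, 9.88 and 9.47 in D2A1 tumors and 8.91, 8.98, 8.76 and 8.78 in 4T1 tumors (1.87-fold, adjusted p = 0.000511) and Prrx1 at 11.55, 11.41, 11.30 and 11.35 in D2A1 tumors and 10.16, 10.67, 10.64 and 9.50 in 4T1 tumors (2.24-fold, adjusted p = 0.00185). For both, D2A1 had the highest mean of the 12 models. Zeb1 and Snai1, repressors of Cdh1, were separated between the models and higher in D2A1 but missed the threshold (0.66 ± 0.27, adjusted p = 0.0633, and 0.62 ± 0.26, adjusted p = 0.0739). Zeb1 passed it when arrays were centred on their medians (adjusted p = 0.032), without the dimmest 30% of genes (0.0484) and in the 8 tumors alone (0.000268), and Snai1 passed in the 8 tumors alone (0.0224). The lower genes were Cdh11, a cadherin of stromal cells, and the forkhead factors Foxc1 and Foxc2. Cdh11 and Foxc1 were near the threshold, and each lost its call in 6 of the 8 fits that left out 1 tumor: Cdh11 without D2A1 replicate 1, 3 or 4 or 4T1 replicate 1, 2 or 3 (adjusted p = 0.0532 to 0.13), and Foxc1 without replicate 1, 2 or 4 of either model (adjusted p = 0.0635 to 0.145). Foxc2 read 6.59, 6.19, 6.11 and 6.47 in D2A1 tumors and 9.56, 9.62, 9.60 and 9.79 in 4T1 tumors, 9.89-fold lower in D2A1 (adjusted p = 6.1e-09) and above every other model mean in 4T1.

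Integrins and laminins tie cells to the matrix. Of 21 integrin subunits, 10 were lower and 2 higher in D2A1 (median -0.68), 57.1% called against 26% of all genes. Itga2, a collagen receptor subunit, read 8.15, 7.96, 8.02 and 8.16 in D2A1 tumors and 11.34, 11.61, 11.41 and 11.15 in 4T1 tumors, 9.89-fold lower (adjusted p = 6.43e-13). Itgb4, which anchors epithelium to laminin in the hemidesmosome, read 9.09, 8.73, 8.996 and 8.65 in D2A1 tumors and 11.48, 11.27, 11.50 and 11.33 in 4T1 tumors, 5.77-fold lower (adjusted p = 3.89e-07). Neither overlapped, and 4T1 had the highest mean of 12 models for both. Itgb1, the common partner subunit, was higher in D2A1 at 12.10, 11.99, 12.10 and 12.05 in D2A1 tumors and 11.63, 11.73, 11.63 and 11.53 in 4T1 tumors (0.43 ± 0.11, adjusted p = 0.00377). The laminin list held 5 of 10 lower (12.6% of all genes were) and none higher. It was led by Lamb3 (4.90-fold, adjusted p = 1.42e-07) and Lama3 (3.44-fold, adjusted p = 4.08e-06), chains of the epithelial laminin that Itgb4 binds.

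Collagens and other matrix genes varied inside D2A1. Of 30 collagen genes, 7 were lower in D2A1 and 1 was higher, 26.7% called against 26% of all genes. Without D2A1 replicate 3, 4 were lower, and the higher one was lost without D2A1 replicate 3 or 4 or 4T1 replicate 2 or 3. Col6a1 read 10.47, 10.21, 9.76 and 9.62 in D2A1 tumors and 11.22, 11.03, 10.79 and 10.49 in 4T1 tumors (-0.87 ± 0.19, adjusted p = 0.0004), and Col1a1 read 12.47, 11.95, 11.26 and 11.32 in D2A1 tumors and 12.64, 12.64, 12.64 and 12.08 in 4T1 tumors and was not called (-0.75 ± 0.29, adjusted p = 0.0536). For Col1a1 the D2A1 replicates 1 and 2 were near the 4T1 tumors and replicates 3 and 4 were below all of them, and it passed the threshold without D2A1 replicate 1 (adjusted p = 0.012) or 4T1 replicate 4 (adjusted p = 0.0348). The mean of 13 fibroblast genes was 0.72 and 0.61 in D2A1 replicates 1 and 2, -0.49 and -0.32 in replicates 3 and 4, and -0.07 to 0.62 in 4T1. The part of fibroblast content in the collagen values was not tested. Among matrix glycoproteins Fbln1, an elastic fibre and basement membrane protein, was higher in D2A1 at 10.50, 10.37, 9.97 and 9.83 in D2A1 tumors and 8.67, 8.90, 9.07 and 8.36 in 4T1 tumors (2.67-fold, adjusted p = 0.00133), the highest mean of 12 models, and Hspg2, encoding perlecan, was lower (-0.66 ± 0.16, adjusted p = 0.00183). Among proteases, Adamts8 was 2.98-fold lower (adjusted p = 1.97e-09).

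Growth factor receptors separated the models. Fgfr2, a receptor whose epithelial splice form answers mesenchymal FGFs, read 6.41, 7.09, 6.24 and 6.30 in D2A1 tumors and 11.15, 11.05, 11.04 and 11.11 in 4T1 tumors. It was 23.9-fold lower in D2A1 (adjusted p = 2.74e-06), and the 4T1 tumors lay above all other model means, 6.28 to 8.15. Fgfr1, its relative of mesenchymal cells, was higher in D2A1 at 11.81, 11.43, 11.43 and 11.36 in D2A1 tumors and 10.76, 10.90, 10.68 and 10.31 in 4T1 tumors (1.80-fold, adjusted p = 0.000109). In the FGF list as a whole 3 of 27 were higher and 3 lower, 22.2% called against 26% of all genes, and 1 was higher without D2A1 replicate 1, 4T1 replicate 2 or 4T1 replicate 3. In the ErbB list the receptor genes Erbb3 (4.44-fold) and Erbb2 (1.86-fold) were lower in D2A1, and so was the ligand Tgfa, at 8.46, 8.12, 8.22 and 8.54 in D2A1 tumors and 10.28, 10.39, 10.44 and 10.17 in 4T1 tumors (3.95-fold, adjusted p = 1.69e-09). Btc, the ligand betacellulin, was higher (0.94 ± 0.20, adjusted p = 0.000319).

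Insulin-like growth factor receptors were lower in D2A1, Igf1r, the signalling receptor, by 2.01-fold (adjusted p = 0.00184) and Igf2r, which clears an IGF from the cell surface, by 4.19-fold (adjusted p = 4.86e-08). In both, 4T1 had the highest mean of 12 models. Of 19 VEGF, PDGF and angiopoietin genes 4 were higher and 3 lower in D2A1, 36.8% called against 26% of all genes. Angpt1, a ligand that steadies vessels, read 7.58, 7.97, 8.34 and 7.98 in D2A1 tumors and 6.18, 6.18, 6.40 and 6.50 in 4T1 tumors (3.14-fold higher, adjusted p = 0.0001). Pdgfb, a ligand of pericyte recruitment, read 9.18, 8.71, 8.73 and 8.78 in D2A1 tumors and 10.07, 10.74, 9.95 and 9.92 in 4T1 tumors (2.50-fold lower, adjusted p = 7.19e-08). Groups did not overlap for either. Vegfc, a lymphatic growth factor, was 2.31-fold lower, and its relative Vegfd was 4.11-fold higher in D2A1.

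Of 36 Wnt genes 5 were higher and 6 lower, 30.6% called against 26% of all genes, and 3 were higher without D2A1 replicate 1. Rspo2, a secreted amplifier of Wnt signals, read 8.86, 8.55, 9.09 and 8.45 in D2A1 tumors and 5.50, 5.81, 5.50 and 5.72 in 4T1 tumors, 8.58-fold higher in D2A1 (adjusted p = 5.78e-20). Axin2, a target and inhibitor of β-catenin signalling, was higher too, at 9.12, 8.60, 8.99 and 8.23 in D2A1 tumors and 6.77, 7.30, 7.24 and 6.69 in 4T1 tumors (3.32-fold, adjusted p = 0.000152). No D2A1 tumor overlapped a 4T1 tumor for either gene. The 4T1 tumors read Rspo2 near the median of the other model means, 5.65. Wnt4 was higher in D2A1 (0.68 ± 0.16), and Wnt5a, Wnt7a and Wnt2b were lower (-1.49 ± 0.41, -1.16 ± 0.16 and -1.18 ± 0.24). In the Notch list 3 of 18 were higher (13.4% of all genes were) and 5 lower (12.6% of all genes), and only 1 was higher without D2A1 replicate 1 or 2 or 4T1 replicate 2, 3 or 4. The ligand gene Jag1 was higher in D2A1 at 11.29, 11.02, 11.12 and 11.44 in D2A1 tumors and 10.26, 10.83, 10.28 and 9.82 in 4T1 tumors (1.89-fold, adjusted p = 2.28e-05). The receptor gene Notch1 was lower at 9.04, 8.96, 8.32 and 8.65 in D2A1 tumors and 10.12, 10.05, 10.26 and 10.01 in 4T1 tumors (2.58-fold, adjusted p = 6.49e-08), the D2A1 mean being the lowest of 12 models.

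**Figure D3:**
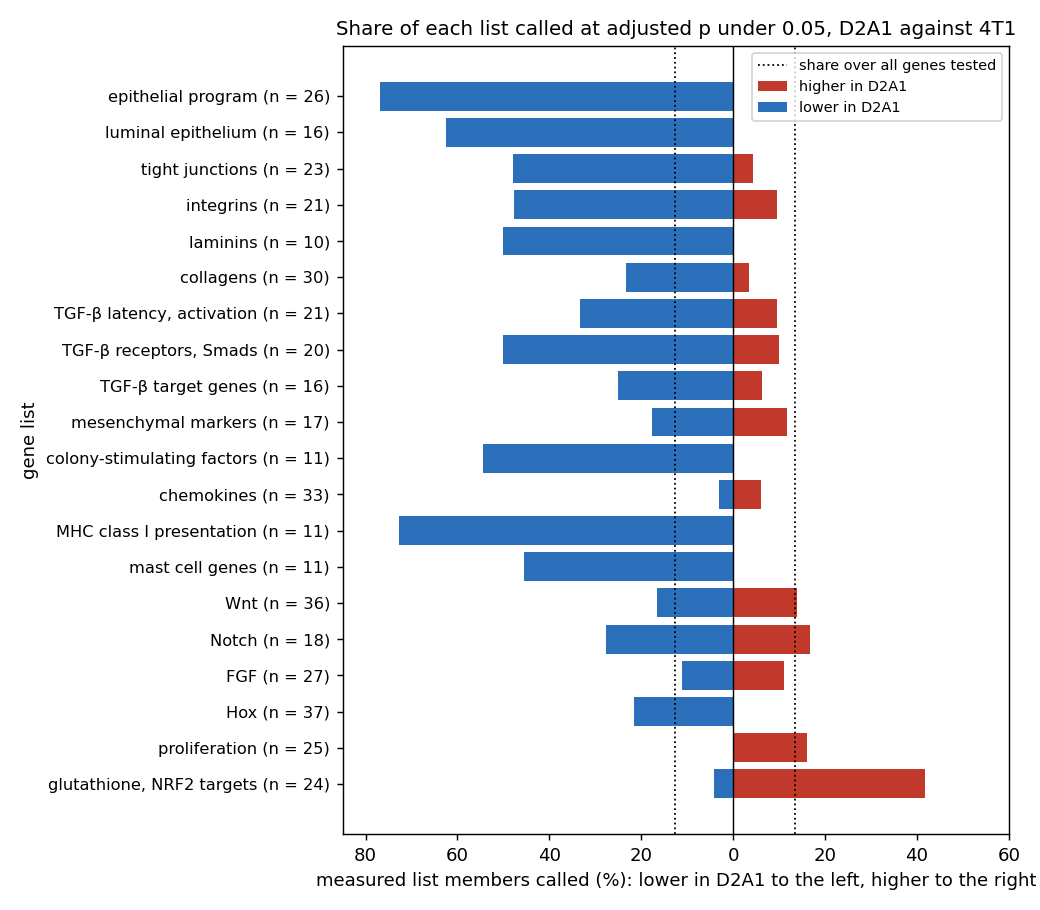
Share of the measured members of 20 gene lists (y axis) called at an adjusted p under 0.05 (x axis, %), with genes lower in D2A1 to the left and higher to the right, and dotted lines at the shares over all 19938 genes, 12.6% lower and 13.4% higher. Most lists pass the dotted line on the left, the epithelial program furthest, but the chemokine, FGF, proliferation and glutathione lists do not. The glutathione list reaches furthest to the right, and the Notch, proliferation and Wnt lists also pass the dotted line there.

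Some of the largest increases in D2A1 were in genes not named so far. Stmn2, a microtubule regulator of neurons, read 10.89, 10.92, 10.84 and 10.70 in D2A1 tumors and 5.30, 5.45, 5.45 and 5.62 in 4T1 tumors, 41.8-fold higher in D2A1 (adjusted p = 7.51e-12). Pcbd1, a cofactor of the transcription factor HNF1 and an enzyme of tetrahydrobiopterin recycling, read 11.05, 11.08, 11.31 and 11.07 in D2A1 tumors and 6.08, 6.40, 6.35 and 6.11 in 4T1 tumors, 29.6-fold higher (adjusted p = 8.96e-16). In both, D2A1 was the highest of 12 models and all 4T1 tumors were near the low end of the other models. Sox2, a transcription factor of stem cells and neural progenitors, read 9.35, 9.05, 9.11 and 9.23 in D2A1 tumors and 5.01, 4.99, 5.05 and 5.04 in 4T1 tumors. Its 4T1 values were near the signal of Y-linked genes, and arrays understate differences from so low a signal. The measured difference was 17.9-fold (adjusted p = 1.83e-19). Dynap, an activator of AKT, was 38.5-fold higher, with 4T1 values from 6.44 to 8.03. The median of the other 10 model means of Dynap was 10.58, so 4T1 was low among the models. Aspa, which cleaves N-acetylaspartate, and Gabre, a GABA-A receptor subunit gene, were 15.6-fold and 9.84-fold higher. Igf2bp1, an RNA-binding protein of the fetal period, was 8.04-fold higher at 9.32, 9.46, 10.04 and 9.85 in D2A1 tumors and 6.11, 7.02, 6.92 and 6.60 in 4T1 tumors. Rbpms2, Plekhh2, Cyria, Mboat2, Adgrl3 and Bhlhb9 were 8.05-fold, 7.49-fold, 7.43-fold, 7.23-fold, 7.10-fold and 7.04-fold higher. For Sox2, Aspa, Gabre, Igf2bp1 and Mboat2 the D2A1 mean ranked 2 of 12 models, below that of another model. It was the highest for the rest of the genes in this paragraph.

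Among the 15 genes with the largest decrease, Tmprss11e, a membrane serine protease of stratified epithelium, read 5.84, 5.77, 5.80 and 6.17 in D2A1 tumors and 11.04, 10.98, 11.15 and 11.09 in 4T1 tumors, 36-fold lower (adjusted p = 5.85e-10). Tns4, a tensin of focal adhesions, read 6.71, 6.99, 6.84 and 6.62 in D2A1 tumors and 11.80, 11.65, 11.66 and 11.76 in 4T1 tumors, 30.4-fold lower (adjusted p = 2.74e-10). In both genes the tumors of a model lay close together, and the gap between models was several log2 units. Fermt1, encoding the integrin activator kindlin 1, and Lad1, an anchoring filament protein, differed by -4.58 ± 0.46 and -4.32 ± 0.40. Gpa33, an intestinal surface antigen, was 18.7-fold lower, Moxd1, a monooxygenase, 19.4-fold, Adgrg6, an adhesion receptor, 17.4-fold, Ccbe1, a factor that activates Vegfc, 15.9-fold and Tmc4, a membrane protein of epithelia, 15.7-fold. For Moxd1, Gpa33 and Adgrg6 the 4T1 tumors exceeded every other model mean.

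**Figure D4:**
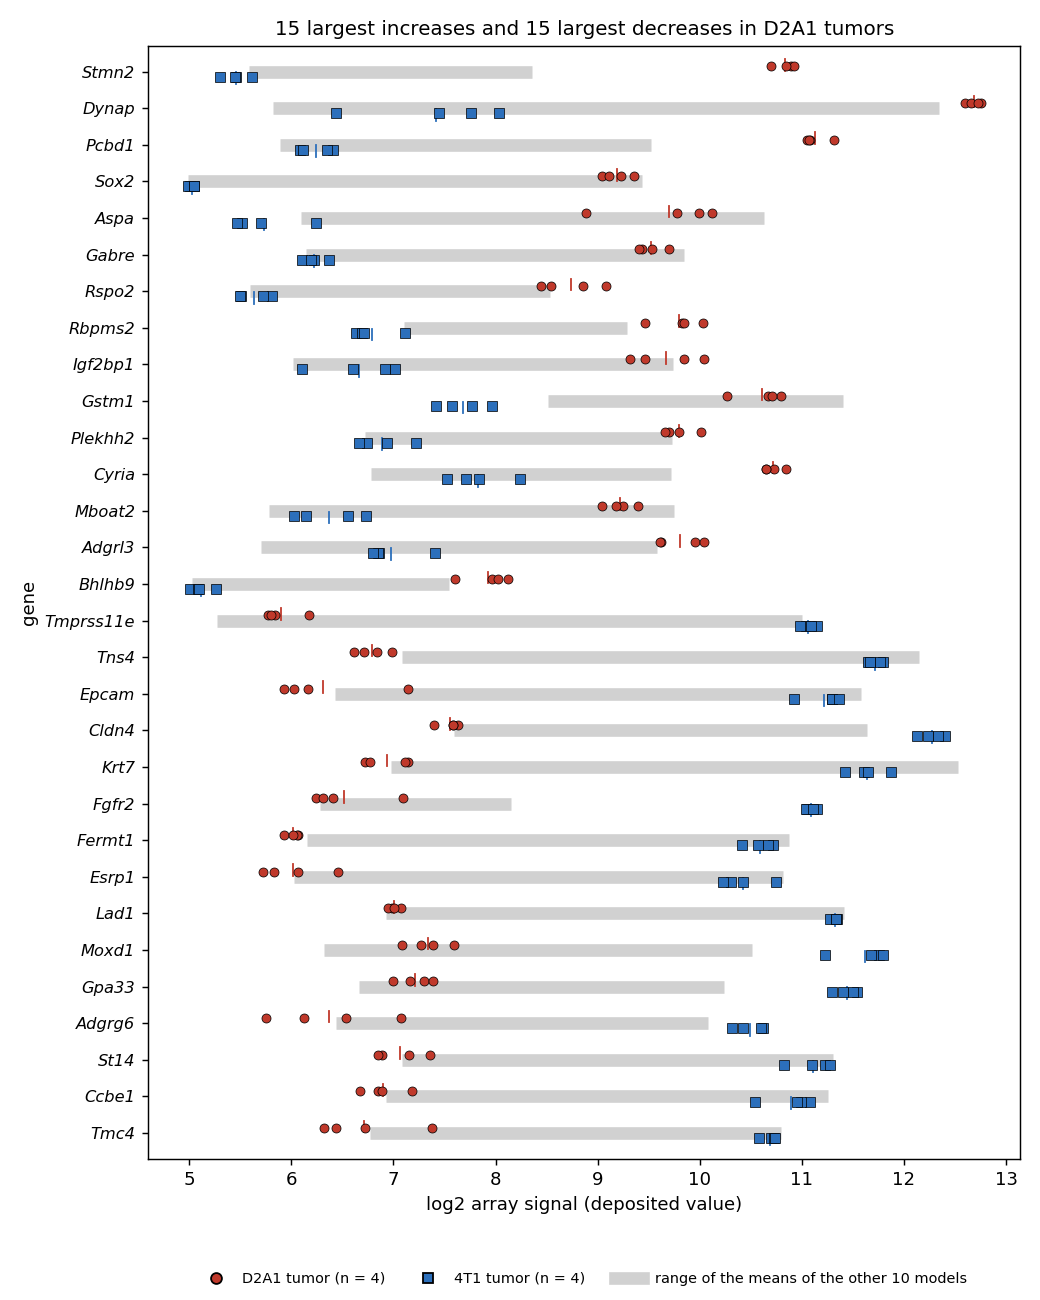
Log2 array signal (x axis) of the 30 genes that differed most, 15 in each direction (y axis), by tumor (circles D2A1, squares 4T1), with lines at group means and grey bars for the range of the other 10 model means. No D2A1 tumor overlaps a 4T1 tumor in any of the 30 genes, which the choice of genes required.

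Developmental transcription factors differed by gene and by cluster. Of 19 Sox genes 2 were higher in D2A1, Sox2 and Sox12 (2.80-fold, adjusted p = 2.45e-10), and 4 were lower, 31.6% called against 26% of all genes. Sox15 read 6.89, 6.47, 6.69 and 6.63 in D2A1 tumors and 9.26, 9.25, 9.25 and 9.07 in 4T1 tumors (5.80-fold lower, adjusted p = 2.83e-20). Sox9, a factor of mammary progenitors, read 9.62, 9.20, 9.35 and 9.20 in D2A1 tumors and 10.75, 10.75, 10.88 and 10.53 in 4T1 tumors (2.62-fold lower, adjusted p = 5.37e-05). D2A1 had the lowest mean of the 12 models for both. Hox genes held 8 of 37 lower and none higher, 21.6% called against 26% of all genes, and 6 of the 8 lie in the Hoxa cluster on chromosome 6. Leaving out 1 tumor gave 5 to 7 lower, with 5 without D2A1 replicate 3 or 4T1 replicate 2, and 1 was higher without D2A1 replicate 2. Hoxa2 read 7.39, 7.49, 7.70 and 7.40 in D2A1 tumors and 9.21, 8.99, 9.04 and 9.08 in 4T1 tumors and Hoxa5 8.28, 9.01, 8.77 and 8.79 in D2A1 tumors and 10.60, 10.44, 10.36 and 10.56 in 4T1 tumors, both without overlap (3-fold and 3.44-fold lower, adjusted p = 2.53e-15 and 2.25e-05). Hoxa3 and Hoxa6 were lower as well, and 4T1 had the highest mean of 12 models for all 4. Hoxa7, in the same cluster, was not called (0.26 ± 0.15).

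MicroRNAs are short RNAs that repress transcripts matching their seed, bases 2 to 8, and the array reads the transcript around the microRNA gene, not the mature arms. Of 296 microRNA genes measured, 12 were higher in D2A1 (4.05%) and 22 lower (7.43%), under the shares of all genes. The 5 shown here were chosen after the values were seen, as microRNAs of epithelial or tumor cells with a called difference. Their mature sequences from RefSeq (GRCm38.p6) are given with the seed in capitals, and all seeds differ.
mmu-miR-200b-3p: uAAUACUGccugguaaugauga
mmu-miR-181b-5p: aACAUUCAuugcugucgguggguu
mmu-miR-100-5p: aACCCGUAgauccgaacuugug
mmu-miR-199a-5p: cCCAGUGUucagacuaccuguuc
mmu-miR-218-5p: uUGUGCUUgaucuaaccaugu
The gene of miR-200b, a microRNA that represses Zeb1 and Zeb2, Mir200b (chromosome 4), read 5.21, 4.91, 5.03 and 5.20 in D2A1 tumors and 6.07, 6.13, 6.83 and 5.62 in 4T1 tumors. It was 2.11-fold lower in D2A1 (adjusted p = 0.00276), without overlap and with the lowest mean of 12 models. Its D2A1 values were near the signal of Y-linked genes, so the fold is uncertain. The neighbouring Mir200a (-0.08 ± 0.11) and the family member Mir141 (-0.09 ± 0.07) were not called.

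Mir181b-2 (chromosome 2) read 5.78, 6.24, 6.16 and 6.21 in D2A1 tumors and 8.06, 7.88, 8.49 and 7.65 in 4T1 tumors (3.79-fold lower in D2A1, adjusted p = 9.67e-09), and 4T1 lay above every other model mean. Mir100 (chromosome 9) read 4.74, 5.31, 4.87 and 4.97 in D2A1 tumors and 6.17, 6.13, 6.46 and 5.78 in 4T1 tumors (2.24-fold lower, adjusted p = 9.66e-12). These D2A1 values lay in or near the signal of Y-linked genes, so the fold is uncertain. Mir100hg, the transcript that hosts Mir100 and Mirlet7a-2, read 10.45, 10.60, 10.92 and 10.70 in D2A1 tumors and 11.38, 11.46, 11.61 and 11.67 in 4T1 tumors. It was lower in D2A1 (-0.86 ± 0.26, adjusted p = 0.0123, and adjusted p = 0.078 without D2A1 replicate 1 and 4T1 replicate 3), as was Mirlet7a-2 (-0.36 ± 0.06), and both models exceeded all other model means of Mir100hg, which ended at 10.27. Mir125b-1, also on chromosome 9, was lower too (-0.62 ± 0.18, adjusted p = 0.00818), but its groups overlapped. Higher in D2A1 were Mir199a-1 (chromosome 9, 0.70 ± 0.14, adjusted p = 0.000129) and Mir218-1 (chromosome 5, 0.78 ± 0.22, adjusted p = 0.00622), both without overlap.

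Of 7 CDK inhibitor genes and neighbours 2 were higher in D2A1 and 3 lower (71.4% called). Of 14 cyclin, CDK, Rb and E2f genes 3 were higher and 1 lower (28.6% called), and 26% of all genes were called. Cdkn2a, whose transcripts encode the inhibitors p16 and p19ARF, read 8.96, 9.02, 9.28 and 9.11 in D2A1 tumors and 7.11, 6.94, 6.79 and 6.80 in 4T1 tumors, 4.55-fold higher in D2A1 (adjusted p = 6.23e-06), and 4T1 had the lowest mean of 12 models. Its neighbour Cdkn2b was the target gene higher in D2A1 above, whereas Mtap, next to both on chromosome 4, was 2.37-fold lower in D2A1 (adjusted p = 0.0147, and 0.0602 without D2A1 replicate 1 and 4T1 replicate 3). Ccnd1, encoding cyclin D1, read 11.57, 11.75, 11.95 and 11.88 in D2A1 tumors and 12.83, 12.66, 12.69 and 12.82 in 4T1 tumors (1.95-fold lower, adjusted p = 7.09e-05). Ccnd3 and Ccne1, encoding cyclins D3 and E1, were higher (0.37 ± 0.09 and 0.73 ± 0.20). Of 25 proliferation genes 4 were higher in D2A1 (13.4% of all genes were) and none was lower (12.6% of all genes were). The count of higher genes depended on single tumors, with 9 without D2A1 replicate 1 and 2 without 4T1 replicate 4. The 4 were the ribonucleotide reductase gene Rrm2 (0.98 ± 0.25, adjusted p = 0.00285), Ube2c, which ends mitosis, the cyclin gene Ccna2 and the spindle checkpoint gene Bub1. Ccna2 lost its call without 4T1 replicate 4 (adjusted p = 0.0503) and Bub1 without replicate 3 or 4 of either model (adjusted p = 0.052 to 0.0754). Mki67 was not called (-0.29 ± 0.18). The mean of the 25 genes was 0.03 in D2A1 replicate 1, 0.53 to 0.63 in the other D2A1 tumors and -0.01 to 0.25 in 4T1. Of 16 measured p53 targets 3 were lower and 1 was higher, 25.0% called against 26% of all genes. Leaving out 1 tumor gave 0 to 3 higher, with 3 without D2A1 replicate 1. Gadd45a, a growth arrest gene, was 4.54-fold lower in D2A1 at 8.22, 7.59, 7.78 and 7.88 in D2A1 tumors and 9.78, 9.98, 9.86 and 10.57 in 4T1 tumors (adjusted p = 2.46e-05).

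Of the 59 lists, genes of glutathione metabolism and other NRF2 targets held the most members higher in D2A1 by count. The list of X inactivation and Y-linked genes held a larger share, 6 of 8. Of 24 glutathione and NRF2 genes measured, 10 were higher and 1 lower (median 0.54), 8 and 1 without D2A1 replicate 1 and 4T1 replicate 3. With all tumors 45.8% were called, against 26% of all genes. Gclm, the modifier subunit of the enzyme that starts glutathione synthesis, read 10.32, 10.72, 10.65 and 10.68 in D2A1 tumors and 9.69, 9.71, 9.66 and 9.56 in 4T1 tumors, and its partner Gclc read 9.62, 10.001, 10.26 and 10.05 in D2A1 tumors and 9.44, 9.40, 9.36 and 9.46 in 4T1 tumors. Both were higher in all 4 D2A1 tumors (1.91-fold, adjusted p = 4.71e-05, and 1.49-fold, adjusted p = 0.000249), and 4T1 had the lowest mean of 12 models for both. Gstm1, a glutathione transferase gene, was 7.62-fold higher, and Gstm3 and Gstm5 were 3.34-fold and 3.49-fold higher. Gstm2 and Gstm4 were also higher, but Gstm2 lost its call without D2A1 replicate 1 and 4T1 replicate 3 together (adjusted p = 0.0641) and Gstm4 without D2A1 replicate 1, 2 or 4 or 4T1 replicate 1, 2 or 4 (adjusted p = 0.0513 to 0.0967). These 5 genes are near copies of each other on chromosome 3, so their probes may share signal and their separate values are uncertain. Mgst2 (3.06-fold), Gstp1 (1.52-fold) and the quinone reductase gene Nqo1 (2.20-fold) lie elsewhere and were higher too. Nqo1 read 6.42 in D2A1 replicate 1 and 7.41 to 7.75 in the other D2A1 tumors, against 6.04 to 6.26 in 4T1.

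Hypoxia and glycolysis genes held 5 of 23 higher and 2 lower, 30.4% called against 26% of all genes, and 2 were higher without D2A1 replicate 1 or 4T1 replicate 1 or 4. Pdk1, which keeps pyruvate out of mitochondria, and Ldha, lactate dehydrogenase, were higher in D2A1 (0.99 ± 0.22, adjusted p = 0.000609, and 0.33 ± 0.09, adjusted p = 0.0032). Car9, a carbonic anhydrase induced by hypoxia, was lower at 7.99, 7.22, 7.14 and 6.94 in D2A1 tumors and 9.37, 10.15, 10.34 and 9.05 in 4T1 tumors (5.30-fold, adjusted p = 0.00015), and so was Egln3 (2.42-fold). The 4T1 mean was the highest of 12 models for both.

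Genes of immune cells and antigen presentation were lower in D2A1 where they differed. In the mast cell list 5 of 11 were lower (12.6% of all genes were) and none was higher, and 3 were lower without 4T1 replicate 4. The mucosal mast cell proteases Mcpt1 and Mcpt2 read 7.08, 7.74, 7.54 and 7.59 in D2A1 tumors and 9.97, 9.69, 10.74 and 10.31 in 4T1 tumors for Mcpt1 and 6.82, 8.05, 7.93 and 7.84 in D2A1 tumors and 10.59, 9.96, 11.18 and 10.80 in 4T1 tumors for Mcpt2. They were 6.46-fold and 7.85-fold lower in D2A1 (adjusted p = 6.94e-09 and 1.76e-05), without overlap. Cpa3 and Tpsb2, further mast cell enzymes, were not called (-1.42 ± 0.78 and -0.55 ± 0.34), nor was Kit (-0.92 ± 0.45). The mean of the 11 genes was -0.65 to -0.04 in D2A1 and 0.30 to 0.86 in 4T1.

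Of 11 genes for MHC class I presentation, 8 were lower and none higher (median -0.76), 72.7% called against 26% of all genes. Psmb9, an immunoproteasome subunit, read 8.84, 9.60, 8.76 and 8.58 in D2A1 tumors and 10.32, 9.82, 10.56 and 10.44 in 4T1 tumors, and the peptide transporter gene Tap2 read 8.98, 9.32, 9.03 and 8.90 in D2A1 tumors and 9.81, 9.51, 10.01 and 9.94 in 4T1 tumors. Both were lower without overlap (-1.34 ± 0.18, adjusted p = 2.8e-07, and -0.76 ± 0.12, adjusted p = 4.43e-06), and D2A1 replicate 2 was the highest D2A1 tumor for each. Nlrc5, the activator of these genes, was lower (-0.68 ± 0.16, adjusted p = 0.000815). Of 21 interferon-induced genes 5 were lower, 23.8% called against 26% of all genes and 3 without D2A1 replicate 4, led by Irf1 (-0.92 ± 0.18, adjusted p = 9.35e-05), and none was higher. Without D2A1 replicate 1 and 4T1 replicate 3 the counts were 7 lower and 1 higher for MHC class I and 4 lower for interferon genes.

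Arg1, the arginase of myeloid cells, read 9.56, 7.47, 6.42 and 7.89 in D2A1 tumors and 11.01, 11.26, 10.76 and 11.15 in 4T1 tumors, 9.26-fold lower in D2A1 (adjusted p = 0.000617), with the highest 4T1 mean of 12 models and a wide spread in D2A1. Most other macrophage genes were not called, 15 of 17, among them Adgre1 (-0.20 ± 0.30) and Cd68 (0.31 ± 0.18). The macrophage mean was -0.75 to -0.05 in D2A1 and 0.00 to 0.34 in 4T1. Gzmb, a granzyme of killer cells, was 4.18-fold lower in D2A1 at 6.16, 7.04, 5.99 and 6.03 in D2A1 tumors and 8.16, 7.65, 8.81 and 8.86 in 4T1 tumors (adjusted p = 0.000246), while Cd3e (-0.58 ± 0.56) and Cd8a (-0.24 ± 0.44) were not called. The part of leukocyte content in the MHC, interferon and granzyme values was not tested. Neutrophil, dendritic cell and T and NK cell means overlapped between the models. The endothelial mean was 0.49 in D2A1 replicate 1, 0.02, -0.34 and -0.18 in replicates 2, 3 and 4, and 0.39 to 0.54 in 4T1, so only D2A1 replicate 1 reached the 4T1 tumors. Of 14 endothelial genes 1 was called, Eng (7.1%, against 26% of all genes), and 4 were lower without D2A1 replicate 1. 4T1 had the highest mean of 12 models for 8 of the 14 (57.1%) and for 5.71% of all genes. The part of endothelial content in the Eng value was not tested.

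Differences also lay unevenly over the chromosomes. On chromosome 10, 25.1% of 938 genes were lower and 4.1% higher in D2A1. On the X chromosome, 26.8% of 739 genes were higher and 5.1% lower. Over all genes 12.6% were lower and 13.4% higher. When each array was centred on its median, lower genes still outnumbered higher ones on chromosome 10, where 5.3% were higher, and 30.6% of X genes were higher. Chromosome 3 held stretches in both directions. Among 763 windows of 50 neighbouring genes the highest median, 0.38, lay on chromosome 3 from Fgf2os to Alg5, with 25 genes higher and 3 lower. Another window of the same chromosome, Clca4a to Tyw3, had a median of -0.256 with 1 higher and 20 lower. The lowest median, -0.28, lay on chromosome 10 from Mfsd12 to Pwp1. Copy number was not measured, and its part in these stretches was not tested.

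On the X, Xist, the RNA that silences 1 X in female cells, read 12.21, 12.28, 12.41 and 12.63 in D2A1 tumors and 11.21, 11.16, 11.25 and 10.94 in 4T1 tumors, 2.36-fold higher in D2A1 (adjusted p = 0.00145). The X-linked genes Kdm5c, Kdm6a and Ddx3x, which are known to stay active on both X chromosomes or nearly so, were higher in D2A1 (0.71 ± 0.09, 0.62 ± 0.12 and 0.47 ± 0.08). D2A1 had the highest mean of 12 models for these 3 genes, and none of the 3 overlapped between models.

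**Figure D5:**
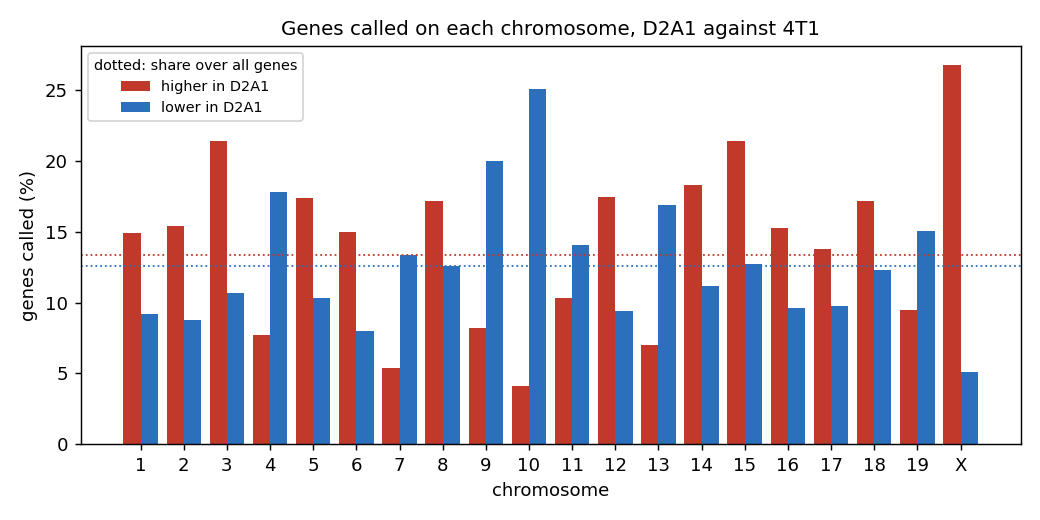
Percent of genes on each chromosome (x axis) called higher (red) or lower (blue) in D2A1 at an adjusted p under 0.05 (y axis, %), with dotted lines at the shares over all genes. Chromosome 10 has 25.1% lower and 4.1% higher, and the X chromosome has 26.8% higher and 5.1% lower.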

How the data were processed

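The deposited table held log2 signal, 1 value per transcript cluster and tumor, from Affymetrix Mouse Gene 1.0 ST arrays hybridised by the authors with RNA of 48 tumors. Its values ran from 3.49 to 14.12, and array medians from 6.76 to 6.99. Which software, normalization and build lay behind it was not given in the sources used here. The table has no detection calls, so unexpressed genes are not marked in it. Dim and very bright genes have compressed differences on arrays. Each group mean rests on 4 tumors.

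Of 35556 clusters, 21789 carried 1 gene in the platform annotation, 1621 several and 12146 none. Symbols were checked against RefSeq by gene ID, which changed none, and for 19938 genes the cluster with the highest mean over 48 arrays was kept. limma 3.58.1 (R 4.3.3) fitted 1 mean per model over all 48 tumors (36 residual degrees of freedom), the contrast was D2A1 minus 4T1, and p-values were adjusted by Benjamini-Hochberg over all genes at 0.05. The SE and p-values rest on the spread between tumors of a cell line pooled over 12 models, not on D2A1 and 4T1 alone. For Stmn2 the fitted SE was 0.46, while the SD was 0.10 in D2A1 and 0.13 in 4T1. On simulated data with 200 changed genes of 19938, 87% of changes of 1 log2 unit and 63% of 0.5 were recovered. False calls were 10 of 184 and 6 of 132. The real contrast called 26% of genes, so these rates need not hold for it. Named genes were Tgfb1, Tgfb2, Tgfb3 and Tslp, the 15 largest non-overlapping increases and decreases, and up to 8 members of a list by smallest p with its defining markers. The pair of models, the members and the gene lists were chosen with earlier results of these data known. Scores are means over a list, each gene relative to its 48-tumor mean. Alternatives covered scaling, cluster choice, a filter on dim genes, limma's prior, the tumors fitted, a replicate block, the methods' t-test and each tumor left out.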

Additional observations from a re-analysis of the deposited data

Results flagged for a closer look

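In groups of 4 tumors, 27 of 410 group values checked (6.59%) had 1 tumor whose gap to the nearest other exceeded Dixon's 95% limit for the share of the group's range, and chance gives about 1 in 20. Of these, 10 lay in D2A1 replicate 1. Its muscle mean was 1.20 (others -0.34 to -0.08) and its epidermis mean 1.46 (others -0.41 to -0.24). It read high for Fgfr1 at 11.81 (others 11.36 to 11.43) and Pdgfb at 9.18 (others 8.71 to 8.78). It read low for Ccna2 at 11.88 (others 12.24 to 12.25), Ddx3x at 11.21 (others 11.62 to 11.67), Mcpt2 at 6.82 (others 7.84 to 8.05), Mgst2 at 9.54 (others 9.92 to 9.98), Rrm2 at 10.43 (others 11.18 to 11.25) and Tgfbi at 11.31 (others 11.66 to 11.68).

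The other D2A1 values were small steps except Gzmb in replicate 2, at 7.04 (others 5.99 to 6.16). Gstm4 read 9.25 in replicate 2 (others 8.73 to 8.81). Replicate 3 read 12.04 for Gstp1 (others 11.82 to 11.86), 13.26 for Ldha (others 13.15 to 13.16) and 11.31 for Pcbd1 (others 11.05 to 11.08).

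Among 4T1 tumors, replicate 4 was low for Cdh11 at 10.41 (others 10.86 to 10.93), Col1a1 at 12.08 (others all 12.64), Epcam at 10.92 (others 11.29 to 11.37), Rrm2 at 9.76 (others 10.10 to 10.14) and Sox15 at 9.07 (others 9.25 to 9.26), and high for Ltbp3 at 12.35 (others 11.95 to 12.00). Replicate 2 was high for Adgrl3 at 7.41 (others 6.79 to 6.86), Itgb3 at 10.34 (others 9.81 to 9.86) and Rbpms2 at 7.11 (others 6.63 to 6.71), and low for Cpa3 at 7.82 (others 9.001 to 9.17). Replicate 3 had a B cell mean of 3.08 (others -0.57 to -0.54) and read 7.33 for Vegfc (others 7.85 to 7.87). The cause of these gaps was not tested.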

How the results depend on the processing

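At the same threshold in limma the 5191 calls ran over the alternatives from 4286 to 5932, and 152 of the 163 named genes called kept their call in every limma refit that tested them with 1 choice changed or 1 tumor left out, and 149 also without D2A1 replicate 1 and 4T1 replicate 3. The filter on dim genes left 11 named genes untested, and the t-test was used for counts only. Leaving out 1 tumor gave 4286 (without D2A1 replicate 3) to 5168 calls, 2080 to 2738 higher and 2197 to 2430 lower. The 8 tumors alone gave 5932, quantile normalization 5307 and median centring 4992 with 63.3% of calls higher in place of 51.5%, as the median over all genes moved from 0.027 to 0.099. The methods' t-test gave 7324 genes at its unadjusted threshold of 0.05 and 5059 after Benjamini-Hochberg adjustment. A minimum of 1 log2 unit left 904 genes, 318 higher and 586 lower.

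The replicate numbers did not pair the tumors: deviations of same-numbered tumors correlated at -0.19, -0.06, -0.20 and 0.09. With the number as a replicate block 5156 genes were called over 48 tumors and 4656 over 8 (2252 higher and 2404 lower). In the latter fit Smad2 (adjusted p = 0.0755) and Cxcl10 (adjusted p = 0.0524) lost their calls. Krt18 (adjusted p = 1.47e-05 without the block and 0.000743 with it), Kit (0.00789 and 0.0255), Zeb1 (0.000268 and 0.00441) and Grhl1 (0.0308 and 0.0113) were called in both fits of the 8 tumors alone. Grhl1 was then the 1 epithelial gene higher in D2A1.

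Without the dimmest 30% of genes, 34.4% of genes on chromosome 10 were lower, and 43.3% on the X and 28.3% on chromosome 3 were higher. The highest and lowest window medians were then 0.479 and -0.375. Over all genes, windows of 30 genes gave 0.418 and -0.368. Here fewer, brighter genes, or smaller windows, entered each value. Without detection calls, the low end of the signal limits what can be read for genes near 5.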

Other observations

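Of 25 genes of BMPs, activins, their receptors and antagonists, 4 were lower in D2A1 and 1 was higher (12.6% and 13.4% of all genes), and leaving out 1 tumor gave 0 to 3 higher (3 without D2A1 replicate 2, 0 without D2A1 replicate 1 or 4T1 replicate 1 or 4). Bmp7, a ligand of epithelium, read 7.04, 6.88, 6.88 and 6.95 in D2A1 tumors and 8.67, 9.62, 8.71 and 9.44 in 4T1 tumors, 4.50-fold lower in D2A1 (adjusted p = 4.43e-05, limma over all genes). Bmp1, a protease that matures collagens, was 2.02-fold lower (adjusted p = 1.75e-05). D2A1 had the lowest Bmp7 mean and 4T1 the highest Bmp1 mean of 12 models. Esr1, the estrogen receptor gene, read 7.73, 8.13, 7.06 and 7.18 in D2A1 tumors and 8.94, 9.21, 9.13 and 9.17 in 4T1 tumors (3.01-fold lower, adjusted p = 0.00384), without overlap. Among 11 genes of the Myc and Max network, Myc (0.78 ± 0.25, adjusted p = 0.0163) and Mlx (0.37 ± 0.08) were higher in D2A1 and none was lower (18.2% called, 26% of all genes). Myc lost its call without D2A1 replicate 3 (adjusted p = 0.0533) or 4T1 replicate 2 (adjusted p = 0.0503).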
